A study of Mus musculus with 24 samples.

Results

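Transcripts of 5 genes of the sodium-potassium pump were examined in the left ventricle of mice: the beta subunit genes Atp1b1 and Atp1b3 and the FXYD genes Fxyd1, Fxyd5 and Fxyd6. They were chosen by name, with earlier results of these data known, and all 5 were among the 14912 genes of the deposited table. The sodium-potassium pump is an enzyme of the plasma membrane that uses ATP to carry sodium out of the cell and potassium into it, and in heart muscle the sodium gradient it builds also drives calcium out of the cell through the sodium-calcium exchanger. An alpha subunit does the transport, a beta subunit is needed for the alpha subunit to fold and reach the membrane, and small single-span FXYD proteins bind the complex and tune its affinity for ions. Fxyd1 encodes phospholemman, the FXYD protein that is typical of heart and skeletal muscle and a target of protein kinases A and C.

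The hypertensive-LVH group held 12 wild-type (WT) mice that received ANG II, a hormone that raises blood pressure, by a subcutaneous mini-pump at 1500 ng/kg/min for 7 days. LVH stands for left ventricular hypertrophy, a thickening of the heart's main chamber. The control group held 12 WT mice that received saline for the same 7 days. Per the study's methods all mice were male C57BL/6J, and hearts of both groups were flushed with saline before the left ventricle was taken. Ages are not given in the sources used here.

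Polyadenylated RNA was sequenced, and each value is an FPKM, the fragments of a transcript corrected for its length and for the total of mapped fragments. Sums of FPKM were 460715 to 515185 in the hypertensive-LVH group and 482319 to 567727 in the control group. The table holds no fragment counts, so no counting interval is given. By exact ties between samples, both groups fell into 4 sets of 3 samples each, numbered 1 to 3, then 4 to 6, then 7 to 9, then 10 to 12. The spacing of the values showed that genes had been shifted and scaled by set, except for 278 genes that stood in whole hundredths in every sample. Of all values 0.766% were negative, and 0 of those belonged to the 5 genes. With all samples 831 genes were differentially expressed (DEGs). The count was 553 without samples 4 to 6 and 1162 without samples 1 to 3. It was 792 without samples 7 to 9 and 931 without samples 10 to 12. Leaving out samples 1 to 3 raised the count most, and leaving out samples 4 to 6 lowered it most. Values without samples 4 to 6 are therefore given beside the results whose call depended on them, and for the 5 genes also the values within the sets.

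The genes lie on 3 chromosomes of the mouse genome (GRCm38, GENCODE vM21). Atp1b1 (ENSMUSG00000026576.12) is at chr1:164437109-164458355 on the minus strand and overlaps Nme7 on the plus strand. Whether fragments were counted by strand is not given, so fragments of this pair cannot be told apart where they overlap. Nme7 had a mean of 4.07 FPKM in LVH samples and of 3.8 FPKM in control samples, far below Atp1b1. Atp1b3 (ENSMUSG00000032412.8) is at chr9:96332655-96364442 on the minus strand. Fxyd6 (ENSMUSG00000066705.7) is at chr9:45370185-45396159 on the plus strand, 3509 bases from Fxyd2. Fxyd5 (ENSMUSG00000009687.14) is at chr7:31032722-31042481 and Fxyd1 (ENSMUSG00000036570.14) at chr7:31051678-31057199, both on the minus strand. Fxyd7 lies between them on the same strand, 31 bases from Fxyd5 and 210 bases from Fxyd1.

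All 5 genes had a promoter in the RefSeq table (GRCm38.p6), which spans 250 bases before to 50 bases after the start. Bases before the start are shown, 5′ to 3′ along each gene's own strand, so that the beta subunit genes can be set beside the FXYD genes. Capitals mark matches to any of 8 motifs searched on both strands of the 250 bases before the start: the TATA box (TATAAA), the CCAAT box, the GC box (GGGCGG), the E-box (CANNTG), the AP-1 site (TGANTCA), the GATA site (GATAAG), the CArG box and the MEF2 site. The Atp1b1 stretch is chr1:164458356-164458455 (minus), the Atp1b3 stretch is chr9:96364443-96364542 (minus), the Fxyd1 stretch is chr7:31054854-31054953 (minus), and the Fxyd6 stretch is chr9:45370085-45370184 (plus). The Fxyd1 stretch lies inside the annotated gene, outside its exons, because GENCODE also lists a start further upstream. For Fxyd5 only the 31 bases between Fxyd5 and Fxyd7 (chr7:31042482-31042512, minus) are shown, since 219 of the 250 bases before its RefSeq start lie in annotated exons.
Atp1b1: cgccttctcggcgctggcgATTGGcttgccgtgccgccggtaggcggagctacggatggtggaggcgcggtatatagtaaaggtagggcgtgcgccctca
Atp1b3: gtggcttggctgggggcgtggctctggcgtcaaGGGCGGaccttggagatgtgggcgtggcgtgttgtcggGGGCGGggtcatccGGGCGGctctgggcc
Fxyd1: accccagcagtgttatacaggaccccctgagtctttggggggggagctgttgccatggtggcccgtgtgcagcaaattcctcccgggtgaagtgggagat
Fxyd5: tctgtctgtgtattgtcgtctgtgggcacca
Fxyd6: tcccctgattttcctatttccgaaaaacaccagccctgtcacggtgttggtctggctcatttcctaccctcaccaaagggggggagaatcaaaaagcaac

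Over the 250 bases before the start, the GC content was 70.4% for Atp1b1 and 73.6% for Atp1b3 against 57.2% for Fxyd1, 55.6% for Fxyd5 and 50.4% for Fxyd6. RefSeq lists 2 starts for Atp1b3, and the values above are for the upstream one. Over the same 250 bases, that start had 5 GC boxes and 1 E-box, and Atp1b1 had 2 GC boxes and 1 CCAAT box. The second start of Atp1b3, inside the annotated gene, had a GC content of 76.8%, 0 GC boxes and 1 E-box. Of 32851 promoters searched over the same length, 32.7% held a GC box, 33.8% a CCAAT box and 66.2% an E-box. Fxyd6 had 1 CCAAT box and 1 E-box, both upstream of the bases shown. Fxyd1 and Fxyd5 had 0 matches to the 8 motifs. Of the motifs that matched in none of the 5 genes, 12.4% of all promoters held the TATA box, 6.75% the AP-1 site, 6.55% the GATA site, 1.47% the CArG box and 2.92% the MEF2 site. A match is a description of the letters and not a binding site.

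The FXYD genes and the beta subunit genes did not move as a block between the groups. Fxyd5 and Fxyd6 rose, Atp1b3 rose by a smaller amount, Fxyd1 fell slightly, and for Atp1b1 the test was not passed. In limma fits over 14026 genes, 4 of the 5 genes had an adjusted p under 0.05, 3 of them higher and 1 lower in the hypertensive-LVH group, while 33.5% of all tested genes passed (20.9% higher and 12.6% lower). With an absolute log2 fold change above 0.5 as well, which is the criterion for a DEG, 2 of the 5 genes were called, both higher and 0 lower, against 5.92% of all tested genes (4.52% higher and 1.4% lower). The median log2 fold change of the 5 genes was 0.25 and that of all tested genes 0.055. As the 5 genes were chosen with earlier results known, the counts beside these shares are a description and not a test. In a bulk sample such as these ventricles, a change in the number of cells of a type and a change of RNA per cell cannot be told apart.

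**Figure D1:**
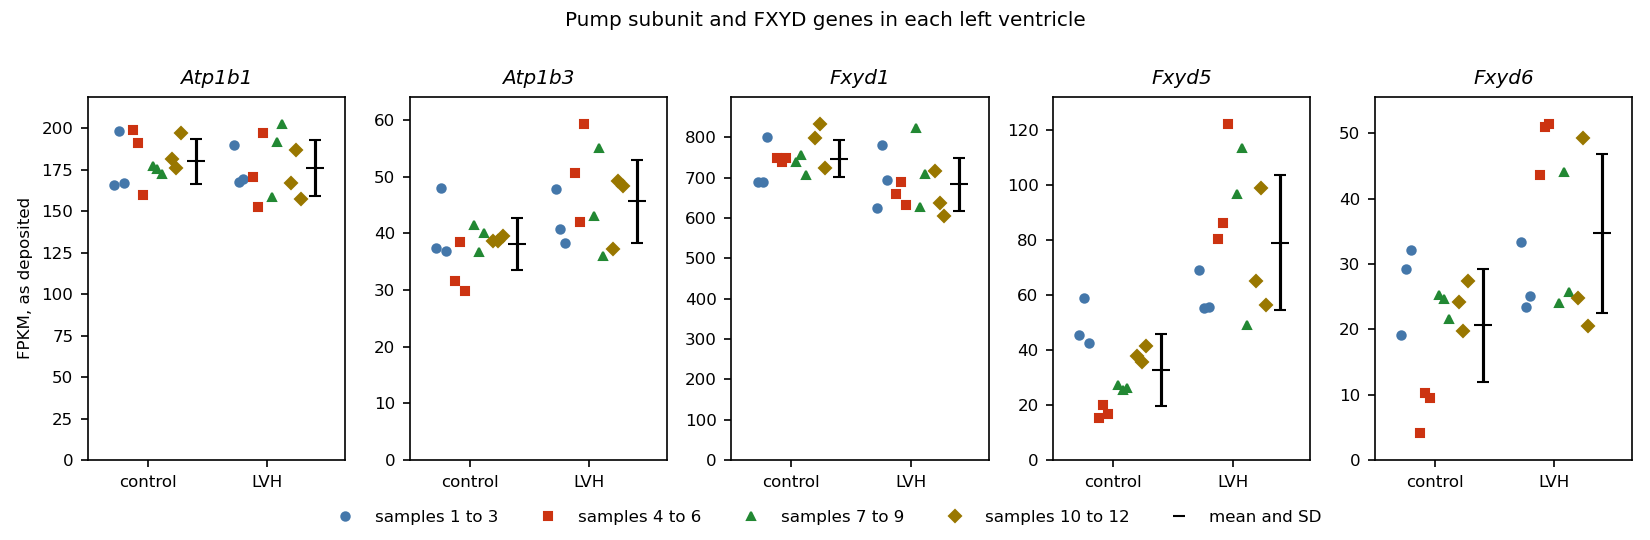
FPKM of the 5 genes in each left ventricle (vertical axes from 0, a separate scale for each gene), with the control group at the left and the hypertensive-LVH (LVH) group at the right of each panel. Colours and shapes mark the 4 sets of samples and bars give the mean and SD of 12 samples. Fxyd5 was above the highest control value of 58.9 FPKM in 8 of 12 LVH samples, and the lowest control values of Fxyd5 and Fxyd6 are those of samples 4 to 6. Values are as deposited. The offset of each set was not recoverable, so levels before the adjustment cannot be compared between sets.

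Atp1b1 encodes the main beta subunit of heart muscle, and it was the most abundant of the 3 beta subunit genes. It ranged from 153 to 203 FPKM (median 170) among LVH samples and from 160 to 199 FPKM (median 176) among control samples. The groups overlapped over nearly their whole range, and 5 of 12 LVH samples were above the control median. Means were 176 ± 16.9 and 180 ± 13.5 FPKM (SD, n = 12 each). The log2 fold change was −0.034 ± 0.051 (SE), with a 95% interval from −0.14 to 0.071 and an adjusted p of 0.624 (limma). The interval leaves room for a decrease of at most 0.14 and an increase of at most 0.071 on the log2 scale at that confidence. Within the sets, the LVH mean was lower in 3 sets and higher in 1.

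Atp1b3 encodes a beta subunit that is more widely expressed outside muscle. It ranged from 36.1 to 59.4 FPKM (median 45.5) among LVH samples and from 29.8 to 48.0 FPKM (median 38.6) among control samples. The ranges overlapped, with 9 of 12 LVH samples above the control median and 5 above the highest control sample. Means were 45.7 ± 7.29 and 38.1 ± 4.59 FPKM (SD, n = 12 each), and the log2 fold change was 0.25 ± 0.078 (SE, adjusted p = 0.0169, limma). Samples 4 to 6 carried the widest difference, 50.6 against 33.3 FPKM. Without samples 4 to 6 the log2 fold change was 0.14, with an adjusted p of 0.218 (limma), so the call rests on that set.

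The summed FPKM of the 3 beta subunit genes was 239 ± 20.7 in the hypertensive-LVH group and 238 ± 16.8 in the control group (SD, n = 12 each). Atp1b3 made up 19.1 ± 2.30% of that sum in the hypertensive-LVH group and 16.0 ± 1.39% in the control group. Without samples 4 to 6 the difference in this share, 3.09 percentage points with all samples, was 1.96 points. Atp1b1 made up 73.6 ± 2.56% and 75.6 ± 2.07%, and without that set 74.4 ± 2.48% and 74.8 ± 1.16% (SD, n = 9 each). Shares were compared as a description, with no test.

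Fxyd1 was the most abundant of the 5 genes in every sample of both groups. It ranged from 606 to 822 FPKM (median 674) among LVH samples and from 688 to 833 FPKM (median 743) among control samples. Of the LVH samples, 10 of 12 were below the control median and 6 below the lowest control sample. Means were 683 ± 66.3 and 747 ± 44.9 FPKM (SD, n = 12 each), and the log2 fold change was −0.13 ± 0.050 (SE, adjusted p = 0.0432, limma). The fall was small and close to the threshold. Under quantile normalization the log2 fold change was −0.017 (adjusted p = 0.786), without samples 4 to 6 it was −0.12 (adjusted p = 0.213), and without samples 10 to 12 it was −0.089 (adjusted p = 0.271), all by limma. The LVH mean was lower in each of the 4 sets.

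Fxyd5 encodes dysadherin, an FXYD protein with a long extracellular part that also acts on cell adhesion. It ranged from 49.1 to 122 FPKM (median 74.8) among LVH samples and from 15.1 to 58.9 FPKM (median 31.6) among control samples. All 12 LVH samples were above the control median and 8 were above the highest control sample, so the ranges overlapped only in part. Means were 79.0 ± 24.6 and 32.7 ± 13.2 FPKM (SD, n = 12 each), a ratio of 2.41. The log2 fold change was 1.29 ± 0.20 (SE), with a 95% interval from 0.88 to 1.70 and an adjusted p of 3.9e-05 (limma). By fold change it was number 72 from the top among the 14026 genes. The call also stood without samples 4 to 6, with a log2 fold change of 0.92 (adjusted p = 0.00154, limma).

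Fxyd6 encodes phosphohippolin, an FXYD protein first described in brain. It ranged from 20.4 to 51.5 FPKM (median 29.5) among LVH samples and from 4.12 to 32.1 FPKM (median 22.9) among control samples. Of the LVH samples, 11 of 12 were above the control median and 6 above the highest control sample. Means were 34.7 ± 12.2 and 20.6 ± 8.58 FPKM (SD, n = 12 each), and the log2 fold change was 0.81 ± 0.25 (SE, adjusted p = 0.0168, limma). This rise came mainly from samples 4 to 6, in which the 3 LVH samples were at 43.5, 51.0 and 51.5 FPKM and the 3 control samples at 4.12, 10.3 and 9.46 FPKM. Without that set the log2 fold change was 0.22, with an adjusted p of 0.305 (limma). Outside it, LVH samples 8 and 11 were also high, at 44.0 and 49.3 FPKM as deposited, each above the other LVH samples of its set.

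Because the values of the 5 genes had been adjusted by set, the group differences were also taken within the sets. Where the spacing of values gave the scale of a gene, they were also taken as they stood before the adjustment. In every set, the LVH mean of Fxyd5 was the higher one. In the order of the sets, the log2 difference of Fxyd5 was 0.29, 2.40, 1.59 and 0.88. That of Fxyd6 was 0.045, 2.55, 0.33 and 0.30. The sets thus differed in size for both genes, and the test of that difference (set-by-group interaction, limma) gave an adjusted p of 0.00267 for Fxyd5 and 0.00229 for Fxyd6. Interaction was called for 2 of the 5 genes and for 7.49% of all tested genes. For Atp1b1, Atp1b3 and Fxyd1 the adjusted p of the interaction was 0.780, 0.295 and 0.601. As deposited, 4 of the 5 genes had the same direction in all 4 sets, against 34.6% of all tested genes. Before the adjustment, only Fxyd5 (higher) and Fxyd1 (lower) kept 1 direction in all 4 sets. Atp1b3 and Fxyd6 were then higher in 3 sets and lower in 1. The deposited count thus depends in part on the adjustment.

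**Figure D2:**
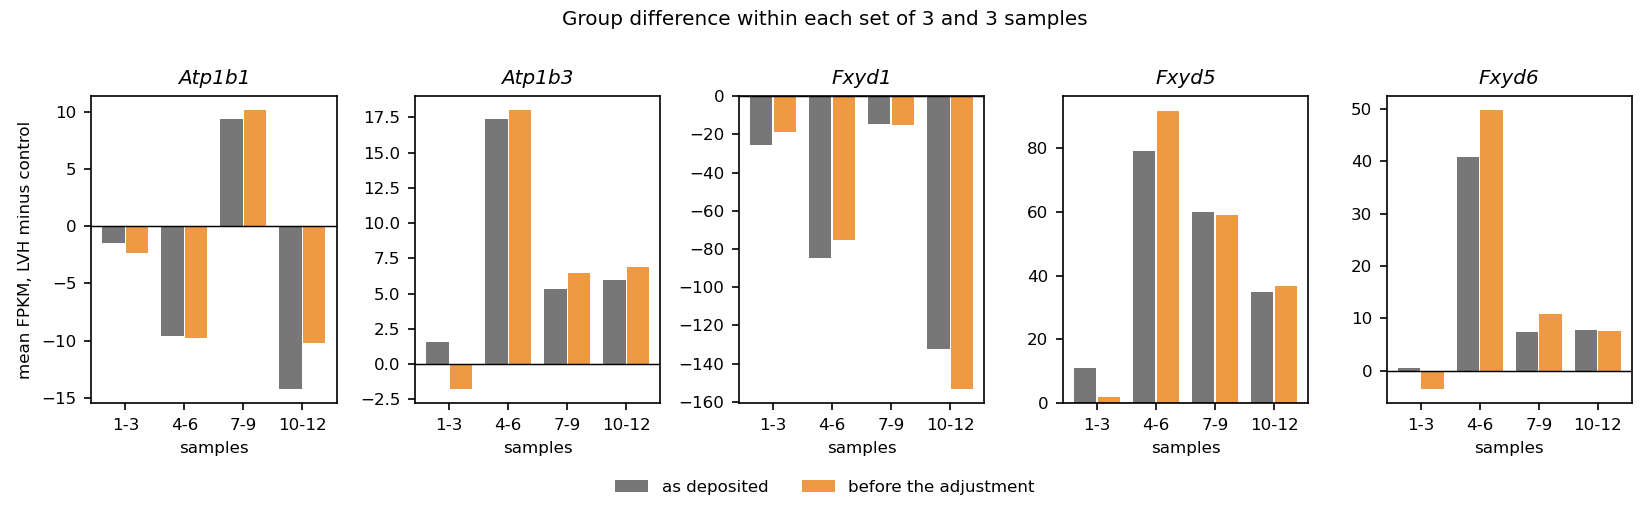
Mean FPKM of the 3 LVH samples minus that of the 3 control samples in each set (horizontal axis, samples of the set; vertical axis, FPKM, a separate scale for each gene). Grey bars give the deposited values and orange bars the recovered values before the adjustment by set; the differences of Fxyd5 and Fxyd6 in samples 4 to 6 were 91.6 and 49.7 FPKM before the adjustment, and those in samples 1 to 3 were 2.11 and −3.58 FPKM.

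Before the adjustment, the difference of Fxyd5 was 2.11, 91.6, 58.9 and 36.7 FPKM in the order of the sets. That of Fxyd6 was −3.58, 49.7, 10.9 and 7.50 FPKM. That of Atp1b3 was −1.79, 18.0, 6.50 and 6.92 FPKM. For samples 1 to 3, then, Atp1b3 and Fxyd6 were higher in the hypertensive-LVH group as deposited (by 1.54 and 0.561 FPKM) and lower before the adjustment. Fxyd1 differed by −18.6, −75.4, −15.0 and −153 FPKM, lower in all 4 sets, and Atp1b1 by −2.31, −9.74, 10.1 and −10.2 FPKM. With labels exchanged only within sets, a two-sided exact permutation test on these unadjusted differences gave p = 6.25e-05 for Fxyd5, 0.0131 for Fxyd6, 0.0190 for Atp1b3, 0.0380 for Fxyd1 and 0.624 for Atp1b1. These p-values are for single genes and are not adjusted over all genes. The offset of each set was not recoverable, which leaves unknown which group of samples 4 to 6 lay apart from the other sets.

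Per kilobase of transcript, the order of levels in the control group was Fxyd1, Atp1b1, Atp1b3, Fxyd5 and Fxyd6. In the hypertensive-LVH group it was Fxyd1, Atp1b1, Fxyd5, Atp1b3 and Fxyd6. Fxyd1 and Atp1b1 had ranges apart from each other and from the rest in both groups. Atp1b3 was above Fxyd5 in 8 of 12 control samples, while Fxyd5 was above Atp1b3 in 12 of 12 LVH samples, and the ranges of the pair overlapped in each group. The FPKM of Fxyd1 divided by that of Fxyd5 was 26.9 ± 11.8 in the control group and 9.48 ± 3.13 in the hypertensive-LVH group (SD, n = 12 each). Of the summed FPKM of Fxyd1, Fxyd5 and Fxyd6, Fxyd1 made up 93.4 ± 2.51% in the control group and 85.7 ± 4.27% in the hypertensive-LVH group. Fxyd5 made up 4.08 ± 1.66% and 9.91 ± 2.95%, and Fxyd6 2.56 ± 1.03% and 4.37 ± 1.54%. Without samples 4 to 6 (n = 9 each) the ratio was 21.2 ± 6.06 and 10.3 ± 3.16, the share of Fxyd1 92.2 ± 1.70% and 87.0 ± 3.97%, and that of Fxyd5 4.70 ± 1.43% and 9.22 ± 2.81%. The share of Fxyd6 was then 3.06 ± 0.512% and 3.82 ± 1.34%, a difference of 0.754 percentage points in place of 1.82. These values are a description, with no test.

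The other beta subunit and FXYD genes were read from a list of 11, of which Atp1b4 and Fxyd4 were not analysed here. Of the 9 tested, 3 rose (Atp1b3, Fxyd5, Fxyd6), 1 fell (Fxyd1) and 5 did not pass, and the median log2 fold change was 0.083. The share past the test was 44.4%, against 33.5% of all tested genes. Without samples 4 to 6 it was 22.2% against 20.1%, with 1 gene higher, which was Fxyd5, and 1 lower. The lower one was not among the 5 genes, as Fxyd1 then had an adjusted p of 0.213 (limma). With all samples, Fxyd2, the FXYD protein of the kidney, was at 2.36 and 3.46 FPKM in the hypertensive-LVH and control groups (adjusted p = 0.060, limma). Atp1b2 was at 17.3 and 19.9 FPKM (adjusted p = 0.0724, limma). In the order of the sets, the log2 difference of Atp1b2 was −0.071, 0.13, −0.47 and −0.39, so it went the other way in samples 4 to 6. That of Fxyd2 was −0.42, −0.011, −0.49 and −0.84. Fxyd3 and Fxyd7 were under 2 FPKM on average in both groups and did not pass, with log2 fold changes of 0.083 and 0.27.

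**Figure D3:**
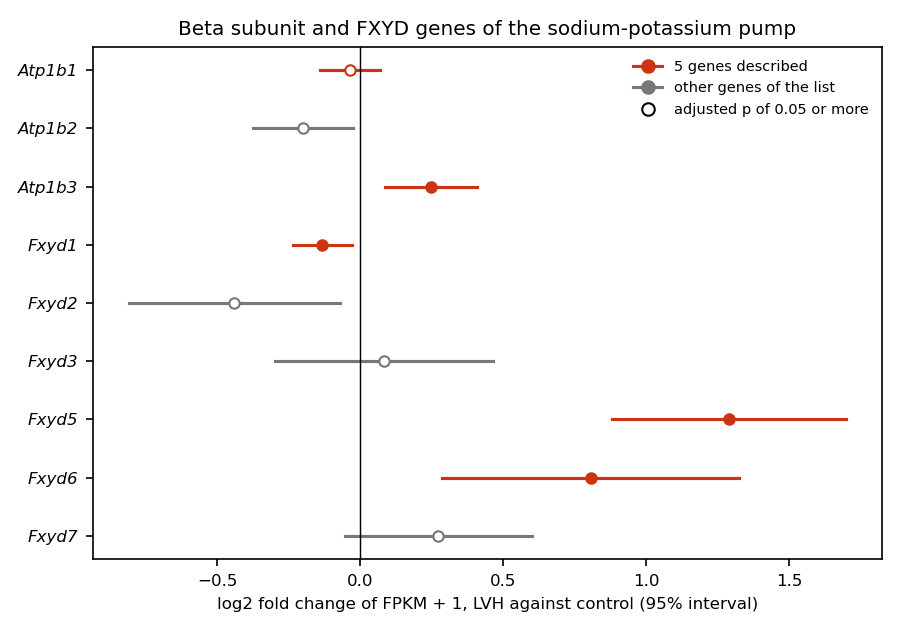
Log2 fold change of FPKM + 1 between the hypertensive-LVH (LVH) and control groups (horizontal axis) with 95% intervals from limma for the 9 tested beta subunit and FXYD genes, 12 samples per group. The 5 genes described are in red and open points had an adjusted p of 0.05 or more; Fxyd5 (1.29) and Fxyd6 (0.81) lie to the right of the other 7 genes.

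Genes that act on the pump were read from a list of 26, of which 23 were tested, and 4 rose, 2 fell and 17 did not pass, and their median log2 fold change was 0.059. The share past the test, 26.1%, was below the 33.5% of all tested genes, and without samples 4 to 6 it was 17.4% against 20.1%. Sgk1, a kinase that raises sodium transport in epithelia, rose with a log2 fold change of 0.39 (adjusted p = 0.00613, limma), and without samples 4 to 6 the value was 0.31 (adjusted p = 0.0940, limma). Prkcd, a protein kinase C, rose with a log2 fold change of 0.43 (adjusted p = 0.00129, limma), or 0.25 (adjusted p = 0.0443, limma) without samples 4 to 6. Prkaca, the catalytic subunit of protein kinase A, which phosphorylates the product of Fxyd1, fell with a log2 fold change of −0.29 (adjusted p = 4.19e-04, limma), and 0 of 12 LVH samples were above its control median. Nedd4l, a ubiquitin ligase that Sgk1 restrains, fell with a log2 fold change of −0.16 (adjusted p = 0.00514, limma). Agrn, which encodes agrin, rose with a log2 fold change of 0.25 that lay mostly in samples 4 to 6 (0.84 there, 0.085, 0.028 and 0.066 in the other sets), and without them it was 0.060 (adjusted p = 0.646, limma). Ppp2ca, a phosphatase subunit, rose with a log2 fold change of 0.11, went the other way in samples 4 to 6 (−0.050), and was at 0.17 without them (adjusted p = 0.00718, limma).

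Of 35 listed sodium channels, exchangers and cotransporters, 32 were tested, and 6 rose, 5 fell and 21 did not pass, and their median log2 fold change was 0.048. The share past the test, 34.4%, was near the 33.5% of all tested genes, and without samples 4 to 6 it was 18.8% against 20.1%. Scn4b, a beta subunit of the sodium channel, fell from 10.0 ± 2.52 to 4.48 ± 1.73 FPKM (SD, n = 12 each), a log2 fold change of −1.04 (adjusted p = 2.47e-05, limma). Scn4a, the sodium channel of skeletal muscle, and Slc9a2, a sodium-proton exchanger, fell with log2 fold changes of −0.74 and −0.46. The phosphate cotransporter gene Slc20a2 and the exchanger gene Slc9a8 fell with log2 fold changes of −0.26 and −0.16, and without samples 4 to 6 the values were −0.14 (adjusted p = 0.0357, limma) and −0.15 (adjusted p = 0.0518, limma). Slc38a2, a sodium-coupled amino acid transporter, rose with a log2 fold change of 0.47, with −0.11 in samples 4 to 6 and 0.66 without them. Slc20a1, Scn7a and Slc8a2, a gene of the sodium-calcium exchanger family, rose with log2 fold changes of 0.35, 0.29 and 0.26. Slc8a2 was at under 1 FPKM on average in both groups, and Slc8a1, which was also listed, is not reported here. Without samples 4 to 6 the log2 fold change was 0.31 for Slc20a1 (adjusted p = 0.0368, limma), while Scn7a, at 0.14 (adjusted p = 0.361, limma), and Slc8a2, at 0.17 (adjusted p = 0.0859, limma), no longer passed.

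Marker lists of cell types differed in how many genes passed the test. The share was 50% for cardiomyocyte, 92.3% for macrophage and monocyte and 66.7% for fibroblast markers. Of all tested genes 33.5% passed (20.9% higher and 12.6% lower). Cardiomyocyte markers were high in all samples (summed FPKM 39373 to 57251 in the hypertensive-LVH group and 50676 to 66222 in the control group), and of 14 tested 1 rose and 6 fell. Of 13 macrophage and monocyte markers 12 rose and 0 fell, with a summed level of 378 to 1102 FPKM in the hypertensive-LVH group and 279 to 629 FPKM in the control group. Of 12 fibroblast markers 7 rose and 1 fell, at 1258 to 3625 and 741 to 1790 FPKM. When samples 4 to 6 were left out, 1 of the 13 macrophage and monocyte markers rose, and of the 12 fibroblast markers 1 rose and 1 fell. These shares, 7.69% and 16.7%, were below the 20.1% of all tested genes in that fit. The median log2 fold change was still 0.47 for macrophage and monocyte and 0.23 for fibroblast markers, against 0.0051 for all tested genes. In samples 4 to 6, where Fxyd5 and Fxyd6 differed most, the summed fibroblast markers were at 2821 FPKM in the LVH samples and 876 FPKM in the control samples, and the macrophage and monocyte markers at 826 and 291 FPKM. In the other samples the fibroblast markers were at 1783 and 1689 FPKM and the macrophage and monocyte markers at 640 and 456 FPKM. Their part in the results for Fxyd5, Fxyd6 and Atp1b3 was not tested.

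Of the further marker lists, red blood cell markers rose in 5 of 7, at 780 to 6446 FPKM in the hypertensive-LVH group and 92.3 to 2950 FPKM in the control group. Atrial myocyte markers rose in 1 of 6 (362 to 6345 and 11.2 to 8159 FPKM), and neuron and glia markers rose in 4 of 9 (115 to 154 and 83.0 to 115 FPKM). Endothelial markers had 1 of 10 higher and 1 lower (543 to 810 and 575 to 711 FPKM), and smooth muscle and pericyte markers 3 of 10 higher and 2 lower (353 to 536 and 283 to 482 FPKM). Lymphocyte markers had 3 of 11 higher and 1 lower, but 11 of the 12 listed were under 1 FPKM on average. Mesothelium markers had 0 of 7 past the test in either direction (4.26 to 31.0 and 5.86 to 64.2 FPKM). Past the test were 71.4% of red blood cell, 50% of smooth muscle and pericyte, 44.4% of neuron and glia and 36.4% of lymphocyte markers. For endothelial and atrial myocyte markers it was 20% and 16.7%, against 33.5% of all tested genes. With samples 4 to 6 left out, the red blood cell count was again 5 of 7. Then 2 of 9 neuron and glia markers rose, and of 10 smooth muscle and pericyte markers 0 rose and 2 fell. These last shares, 22.2% and 20%, were near the 20.1% of all tested genes.

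The 5 genes were also compared with each other from sample to sample, after the mean of each group within each set was removed, over 24 samples and 10 pairs. For Atp1b3 and Fxyd5, Pearson's r was 0.75 (permutation p = 0.00835, adjusted p = 0.0742) and Spearman's rho 0.70 (permutation p = 0.00761, adjusted p = 0.0515). With the 2 farthest samples from the median left out, r was 0.64. For Fxyd5 and Fxyd6, r was 0.62 (permutation p = 0.0148, adjusted p = 0.0742) and rho 0.61 (permutation p = 0.0155, adjusted p = 0.0515), and r was 0.62 without the 2 farthest samples. For Atp1b3 and Fxyd1, r was −0.59 (permutation p = 0.0273, adjusted p = 0.0854) and rho −0.60 (permutation p = 0.0141, adjusted p = 0.0515), and r was −0.57 without the 2 farthest samples. No pair passed an adjusted p of 0.05, since 0 of 10 did by r and 0 of 10 by rho, while 4 had an unadjusted p under 0.05 by each measure. Values of 1 sample share a library and its total, which was not removed.

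**Figure D4:**
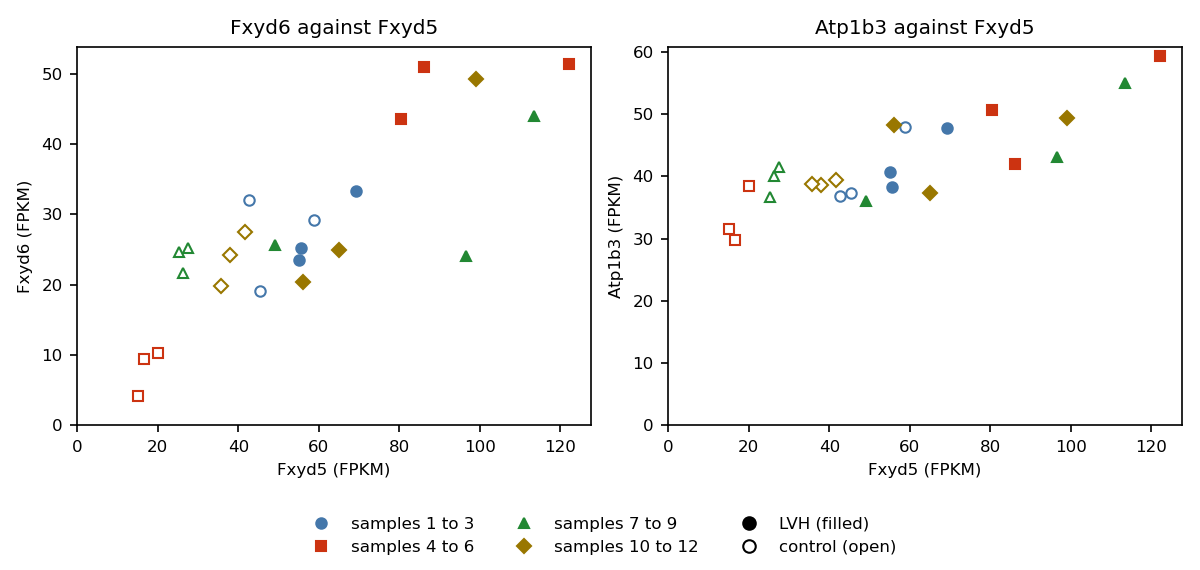
FPKM of Fxyd6 (left panel) and of Atp1b3 (right panel) against that of Fxyd5 in the 24 left ventricles, with filled points for the LVH group, open points for the control group and colours and shapes for the 4 sets. In the deposited values, control samples 4 to 6 lie at the lower left of both panels, with Fxyd5 at 15.1 to 20.1 FPKM. LVH samples 4 to 6 lie at the right, with Fxyd5 at 80.4 to 122 FPKM.

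For each of the 5 genes, the 3 genes most like it were those with the highest r over the 24 samples after the same means were removed, among 11458 genes with a mean of at least 1 FPKM. They were chosen as the highest, and are given as a description with no test. For Fxyd5 they included Bmp1 (r = 0.94), which encodes a procollagen protease, and Arf3 (0.93), and both rose in the hypertensive-LVH group, with log2 fold changes of 0.71 and 0.31, which were 0.28 (adjusted p = 0.0691, limma) and 0.17 (adjusted p = 0.0946, limma) without samples 4 to 6. For Fxyd6 they were Igfbp7 (0.91), which encodes a secreted binding protein, St6gal1 (0.90), a sialyltransferase gene, and Mxra8 (0.89), with log2 fold changes of 1.09, 0.17 and 0.77, of which that of St6gal1 did not pass (adjusted p = 0.0914, limma). In fits that left out samples 4 to 6, Igfbp7 was at 0.51 (adjusted p = 0.0174, limma) and Mxra8 at 0.26 (adjusted p = 0.135, limma). For Atp1b3 they were Tmed10 (0.94), a gene of vesicle transport, Abi1 (0.93) and G2e3 (0.93). For Atp1b1 they were Pde9a (0.91), a cyclic GMP phosphodiesterase gene, Msantd4 (0.88) and Cbfb (0.87). For Fxyd1 they were Mrpl55 (0.86), a gene of the mitochondrial ribosome, Eif2b4 (0.86) and Psmd3 (0.86).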

How the data were processed

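Left ventricles of 12 mice of each group were analysed; groups came from GEO's labels. The authors deposited 1 FPKM value per gene and sample, listed by symbol. The submitters' processing notes name HISAT, Bowtie2 and RSEM; versions, genome build and strand setting are not given in the sources used here. The deposited values were mostly not plain FPKM: apart from 278 genes in whole hundredths, they had been shifted and scaled by set of samples. No source describes this step, and the scale was recovered from steps of 0.01 FPKM. The labels tie no sample to a litter or day.

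With negative values at 0, log2(FPKM + 1) was fitted in limma 3.58.1 (R 4.3.3, intensity trend, Benjamini-Hochberg adjustment) for 14026 genes with a mean of at least 0.1; fold changes are on this scale and understate those of low genes. Printed means and SD use deposited FPKM. Exact permutation tests within sets used all 160000 relabelings, and correlations 100000 resamples, two-sided, in Python 3.11.15 (numpy 2.4.6, pandas 2.3.3, scipy 1.17.1). Fits were tested on simulated data.

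The 5 genes and all lists were chosen with earlier results of these data known. Named genes were the 5, the tested beta subunit and FXYD genes, up to 5 genes per direction of the other lists by adjusted p, and the 3 most alike. Nme7 was named as an overlapping gene. Some genes that this rule takes in are not reported here. Alternatives were the pseudocount, filter, scaling, trend, a rank-sum test, set or replicate terms, and samples left out; the test before the adjustment, and the listed genes, list counts and FXYD shares without samples 4 to 6, were added after the data were seen.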

Additional observations from a re-analysis of the deposited data

How the results depend on the processing

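Fxyd5 and Atp1b1 kept direction and side of the threshold under 15 of 15 other settings and under all 24 fits without 1 sample (log2 fold change of Fxyd5 1.20 to 1.38, of Atp1b1 −0.053 to −0.016). Without samples 4 to 6 the log2 fold change was 0.14 for Atp1b3, −0.12 for Fxyd1 and 0.22 for Fxyd6, each no longer past the threshold, and Fxyd1 also lost its call without samples 10 to 12 (−0.089), under quantile normalization (−0.017) and with the set of samples as a term (−0.13, adjusted p = 0.0702, limma). Without 1 sample, the log2 fold change ranged from 0.21 to 0.28 for Atp1b3, from 0.63 to 0.88 for Fxyd6 and from −0.16 to −0.12 for Fxyd1, whose call was lost in 15 of 24 such fits (adjusted p 0.0112 to 0.0766 over the 24, limma): without hypertensive-LVH sample 1, 4, 5, 6, 8, 11 or 12, or control sample 3, 4, 5, 6, 7, 8, 10 or 11. The difference in the share of Atp1b3 ranged from 2.80 to 3.53 percentage points without 1 sample.

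With the replicate number as a block, the log2 fold changes were as before, and the call was lost for Atp1b3 (0.25, adjusted p = 0.0755, limma), Fxyd1 (−0.13, adjusted p = 0.117, limma) and Fxyd6 (0.81, adjusted p = 0.0720, limma). In the deposited values, same-numbered samples did not deviate together (r −0.557 to −0.00109, 0 of 12 over 0.1). The adjustment by set also shaped these deviations, so this check cannot show whether the numbers are pairs. The labels do not say that they are, and the main fit does not use them. The block gave 715 DEGs.

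The 831 DEGs (634 higher and 197 lower) became 1489 with a pseudocount of 0.1, 553 without samples 4 to 6, 1162 without samples 1 to 3, 4697 with no fold change threshold and 715 to 979 without 1 sample. Quantile normalization gave 458 higher and 275 lower, and median-ratio scaling 536 and 278. The causes were not tested. The adjustment by set took the group into account, so p-values of the deposited values leave out its uncertainty. Depth is not in the table, and low genes are limited most by it.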
